A study of Mus musculus with 6 samples.

Results

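Neurofilaments and axon growth proteins were followed as 10 genes, Nefl, Nefm, Nefh, Ina, Gap43, Stmn2, Dcx, Map2, Mapt and Uchl1, taken by symbol from the 55487 genes of the deposited table; all 10 were found, each once, and all 10 passed the filter on low values. RNA had been sequenced from thoracic spinal cord of mice on the day of birth (P0), from 3 wild-type samples (WT) and 3 samples of the genotype Myt1-/- (below, the null). Myt1 is a neural transcription factor with zinc fingers, and the study asked which genes act downstream of it while oligodendrocytes, the myelin-forming cells, differentiate. The sources used here do not give the strain, the sex or how the Myt1 allele was made. They also leave unsaid whether each sample is its own animal, so the p-values reflect the spread between samples, which may be technical. The values are TPM (transcript abundance), which are scaled for transcript length and for the sample total, so levels of different genes can be set side by side.

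Neurofilaments are the intermediate filaments of axons. They are built from a light, a medium and a heavy subunit (Nefl, Nefm and Nefh) together with alpha-internexin (Ina), and they accumulate as axons mature and widen; large projection neurons, such as spinal motor neurons and many sensory neurons of the dorsal root ganglia, are rich in them. Axon growth relies on other proteins: Gap43 is a membrane protein of growth cones, Stmn2 a stathmin that binds tubulin and Dcx a microtubule protein of young neurons, while Map2 and Mapt (tau) bind microtubules of dendrites and axons. Uchl1 is an abundant neuronal ubiquitin hydrolase.

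The targeted gene went with the labels. Myt1 measured 11.54, 11.53 and 13.61 TPM across WT replicates, against 6.14, 5.36 and 5.28 TPM across null replicates, so transcript of the whole gene was lower but present in every null sample. The tissue label was checked too: Hox genes of trunk cord (Hoxc6, Hoxc8, Hoxc9, Hoxd8 and Hoxa9) summed to between 171.86 and 214.88 TPM in WT and between 220.85 and 234.17 TPM in the null, groups that did not overlap, with 0 of 5 at an unadjusted p under 0.05; whether the level of the cord sampled has a part in the results was not tested. By contrast Otx2, Emx1, Emx2, Lhx2 and Dlx2, listed as forebrain and midbrain genes, summed to at most 1.72 TPM. Otx2, Emx1 and Emx2 were at 0 in every sample and Dlx2 at no more than 0.03 TPM, so Lhx2 was the largest part of each sum. Whether Lhx2 came from cord cells was not tested. WT replicate 1 had the largest share of mitochondrially encoded transcripts, 11.3% of TPM, against 8.64% to 9.04% elsewhere. The files give no read counts, so depth is unknown.

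Of the members, the neurofilament subunits Nefl and Nefm have gene models that overlap, which bears on how far their values are independent. On chromosome 14 (GRCm38, GENCODE M21), Nefl spans 68083863 to 68089095 on the plus strand and Nefm 68082590 to 68124846 on the minus strand. An exon of a longer annotated Nefm transcript lies across the first exon of Nefl on the opposite strand, so that 1108 bases, 32.8% of Nefl's exonic bases and 19.2% of Nefm's, belong to both. Whether the library kept strand, and whether the authors' annotation held that transcript, the sources used here do not say; without strand, reads from these bases cannot be assigned to 1 gene. Nefh (chromosome 11, 4938754 to 4948064, minus strand) overlaps no annotated gene. Ina (chromosome 19, 47014698 to 47025327, plus strand) shares 456 exonic bases, 14.1% of its own, with Nt5c2 on the other strand, which was measured at 45.96 to 54.63 TPM. The other members lie on chromosomes 16 (Gap43, 42248442 to 42340651, minus strand), 3 (Stmn2, 8509360 to 8561606, plus), X (Dcx, 143855842 to 143933311, minus), 1 (Map2, 66175273 to 66442583, plus), 11 (Mapt, 104231390 to 104332090, plus) and 5 (Uchl1, 66676091 to 66687234, plus). Uchl1 shares 295 exonic bases with its antisense gene Uchl1os, which did not exceed 0.06 TPM.

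Promoter sequence was at hand for 4 of the 10 members (Ina, Dcx, Map2 and Uchl1; RefSeq, GRCm38.p6). The stretches before Dcx and Ina are shown because Dcx is the member whose null samples all lay above the WT samples and Ina the filament gene that did not go with Nefl, Nefm and Nefh. Dcx is given at chrX:143933312-143933469 (minus strand, 158 bases up to the first base that GENCODE annotates as transcribed) and Ina at chr19:47014431-47014680 (plus strand, 250 bases before its RefSeq start). Both read 5′ to 3′ on the strand of the gene, and capitals mark TATAAA.
Dcx: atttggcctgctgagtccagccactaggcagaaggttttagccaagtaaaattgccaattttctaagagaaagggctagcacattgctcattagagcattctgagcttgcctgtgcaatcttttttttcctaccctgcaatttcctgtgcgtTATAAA
Ina: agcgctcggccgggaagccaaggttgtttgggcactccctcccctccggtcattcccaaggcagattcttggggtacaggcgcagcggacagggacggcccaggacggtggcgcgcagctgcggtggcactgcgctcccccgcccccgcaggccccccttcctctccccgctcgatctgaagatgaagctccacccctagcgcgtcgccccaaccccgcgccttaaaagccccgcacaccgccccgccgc
The Ina stretch is 70.8% G and C, and the 250 bases before the farther of the RefSeq starts of Dcx are 41.6%. Both motifs below were searched on either strand of the 250 bases before each start. The letters AAGTT, the core that Myt1 zinc fingers bind, were in none of the 5 windows of these 4 genes, and 35.3% of all 32851 promoter windows hold them. TATAAA was in both windows of Dcx, which overlap each other, and in 12.4% of all windows. A match or its absence in these letters is a description only.

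All 10 transcripts were abundant in newborn cord, and their levels spanned a wide range. Averaged over the 6 samples, Uchl1 was highest at 1295 TPM and Stmn2 was next at 1263 TPM, followed by Gap43 at 1127 TPM. Then came Nefl at 749 TPM, Nefm at 677 TPM, Mapt at 614 TPM and Map2 at 520 TPM, and below them Ina at 253 TPM, Dcx at 171 TPM and Nefh, the lowest, at 75.8 TPM. By mean TPM the members ranked between 75 (Uchl1) and 2190 (Nefh) of the 15962 genes tested. Neighbours in this order whose ranges did not overlap were Stmn2 over Gap43, Gap43 over Nefl, Mapt over Map2, Map2 over Ina, Ina over Dcx and Dcx over Nefh. Uchl1 exceeded Stmn2 in 5 of 6 samples, with overlapping ranges, so these neighbours do not differ beyond their spread. Nefm lay above every WT value of Mapt in all 3 WT samples and above Mapt in null replicate 1, but below it in null replicates 2 and 3, so over the 6 samples their ranges overlapped. In null replicate 3 Nefl, at 630.11 TPM, was also below Mapt, at 644.91 TPM, while Nefl exceeded Nefm in 6 of 6 samples although their ranges overlapped. The gene-level TPM sums over isoforms of unlike length, from 546 to 6258 bases among the coding transcripts of Map2 and from 1333 to 9074 bases among those of Dcx, so levels of these genes depend on how reads were shared among isoforms.

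**Figure D1:**
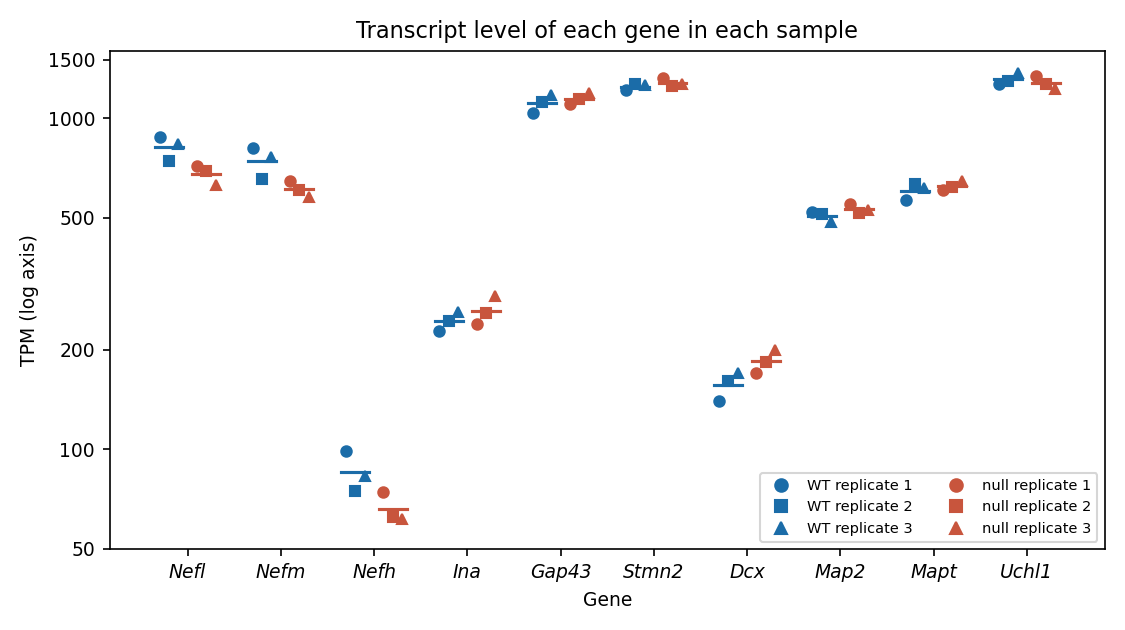
Level of each member in TPM (log axis) in the 3 WT samples (blue) and 3 null samples (red); symbols are samples and bars are group means. The 3 null samples of Nefl, Nefm and Nefh lie below the 3 WT samples, those of Dcx lie above, and the groups of the other 6 genes overlap.

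The light, medium and heavy neurofilament subunits were lower in the null cord, by 1.20-fold to 1.30-fold in their means, while none of them passed the test over all genes. Nefl, the light subunit that filaments need to assemble, measured 878.34, 739.95 and 835.33 TPM across WT replicates, against 718.31, 691.71 and 630.11 TPM across null replicates. Its groups did not overlap, with 21.64 TPM between the lowest WT and the highest null sample. The group means were 818 ± 70.8 TPM (WT) and 680 ± 45.2 TPM (null; SD, n = 3 each), 1.20-fold lower. Nefm, the medium subunit, measured 812.96, 655.09 and 761.55 TPM across WT replicates, against 647.17, 606.74 and 578.1 TPM across null replicates. Its groups were parted by 7.92 TPM, less than either group's SD, and its mean was 1.22-fold lower, 743 ± 80.5 TPM (WT) against 611 ± 34.7 TPM (null; SD, n = 3 each). Nefh, the heavy subunit whose phosphorylated tail is a mark of mature axons, measured 98.47, 74.85 and 83.22 TPM across WT replicates, against 74.22, 62.33 and 61.43 TPM across null replicates. It was 1.30-fold lower in its mean, 85.5 ± 12.0 TPM (WT) against 66.0 ± 7.14 TPM (null; SD, n = 3 each), and only 0.63 TPM parted WT replicate 2 from null replicate 1.

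By limma the differences in log2(TPM + 1), taken as null minus WT, were -0.26 (SE 0.078) for Nefl, -0.28 (SE 0.086) for Nefm and -0.37 (SE 0.12) for Nefh. The unadjusted p was 0.0124 for Nefl, 0.0151 for Nefm and 0.0181 for Nefh, and the Benjamini-Hochberg adjusted p over all 15962 genes was 0.669 for each of them. Over all members, 0 of 10 passed an adjusted p of 0.05 (0% of all genes tested) and 4 of 10 had an unadjusted p under 0.05 (7.45% of all genes), 3 of them lower (3.13%) and 1 higher (4.32%). Over all genes 690 of 1189 at that threshold were higher in the null, against 551 of 1207 after median-ratio scaling. The null lay below every WT sample in 3 of 10 members (5.38% of all genes) and above in 1 of 10 (8.91%). Genes at the level of Nefh or higher, 2190 in all, separated somewhat more often, 7.26% below and 12.2% above. The median member difference was 0.042, against 0.025 over all genes tested. After upper-quartile scaling of the samples the null lay below every WT sample for Nefl but no longer for Nefm and Nefh, and after median-ratio scaling no longer for Nefh. Without null replicate 3 the unadjusted p was 0.0423 for Nefl, 0.0523 for Nefm and 0.0597 for Nefh, and without null replicate 2 it was 0.0578 for Nefh.

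**Figure D2:**
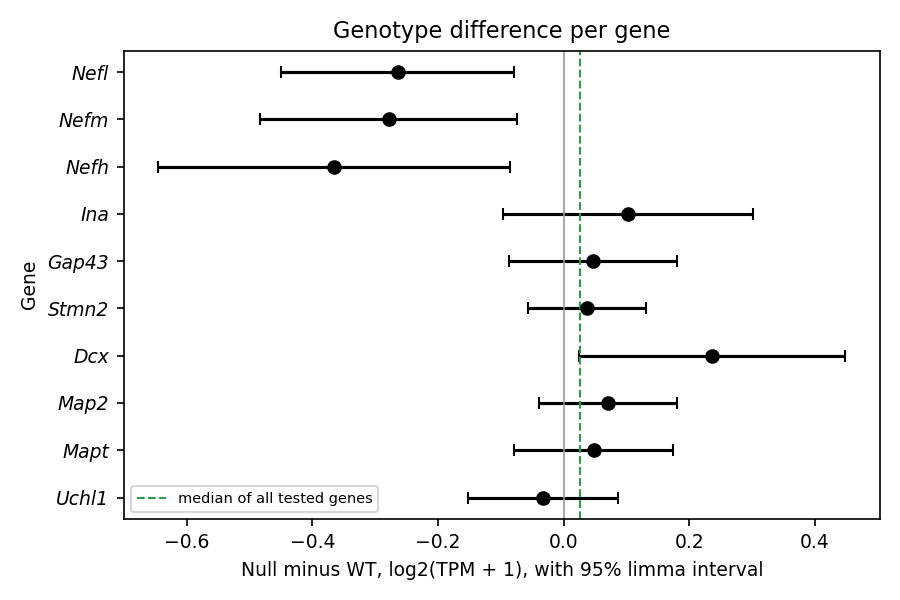
Genotype difference of each member, null minus WT in log2(TPM + 1), with the 95% interval of the limma fit; the dashed line is the median of all tested genes. The intervals of Nefl, Nefm, Nefh and Dcx do not cross 0, and those of the other 6 genes do.

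Nefl, Nefm and Nefh had the same order of samples from highest to lowest: WT replicates 1, 3 and 2, then null replicates 1, 2 and 3. Relative to the WT mean on the log2 scale, Nefl lay at 0.11, -0.14 and 0.034 in the WT samples and at -0.18, -0.24 and -0.37 in the null samples. Nefh spread wider, from 0.21 in WT replicate 1 to -0.46 in null replicate 3. WT replicate 2 lay nearer to null replicate 1 than to the other WT samples in all 3 genes.

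Ina took a larger mean share of the filament transcripts in the null cord. Nefl, Nefm, Nefh and Ina together summed to 2016.64, 1714.55 and 1939.73 TPM in WT and to 1677.91, 1619.55 and 1559.51 TPM in the null. Ina, an intermediate filament that appears early in developing neurons, made up 11.2%, 14.3% and 13.4% of that sum in the WT samples and 14.2%, 16.0% and 18.6% in the null samples, groups that overlap at WT replicate 2 and null replicate 1. Ina itself measured 226.87, 244.66 and 259.63 TPM across WT replicates, against 238.21, 258.77 and 289.87 TPM across null replicates. These groups overlapped, and the difference was 0.10 on the log2 scale (95% interval -0.096 to 0.30).

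Ratios within a sample do not depend on the scaling of the sample. The ratio of Ina to Nefl was 0.258, 0.331 and 0.311 in the WT samples and 0.332, 0.374 and 0.460 in the null samples, all above WT but by little at the nearest pair. Nefm to Nefl was 0.908 ± 0.0204 (WT) and 0.899 ± 0.0203 (null), and Nefh to Nefl was 0.104 ± 0.0068 and 0.0970 ± 0.0066 (SD, n = 3 each), each a difference of about the size of the SD or smaller. Dcx to Nefl was 0.193 ± 0.0305 (WT) and 0.273 ± 0.0397 (null), and Gap43 to Nefl was 1.37 ± 0.166 and 1.69 ± 0.181 (SD, n = 3 each). For both of these every null sample lay above every WT sample. Of 6 ratios compared, Ina, Dcx and Gap43 to Nefl had an exact two-sided permutation p of 0.1 (adjusted over the 6 ratios, 0.2), which is the smallest that 3 samples against 3 can give, so no ratio could reach 0.05. Nefl is the divisor in all 3 of these, so they are not separate results.

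**Figure D3:**
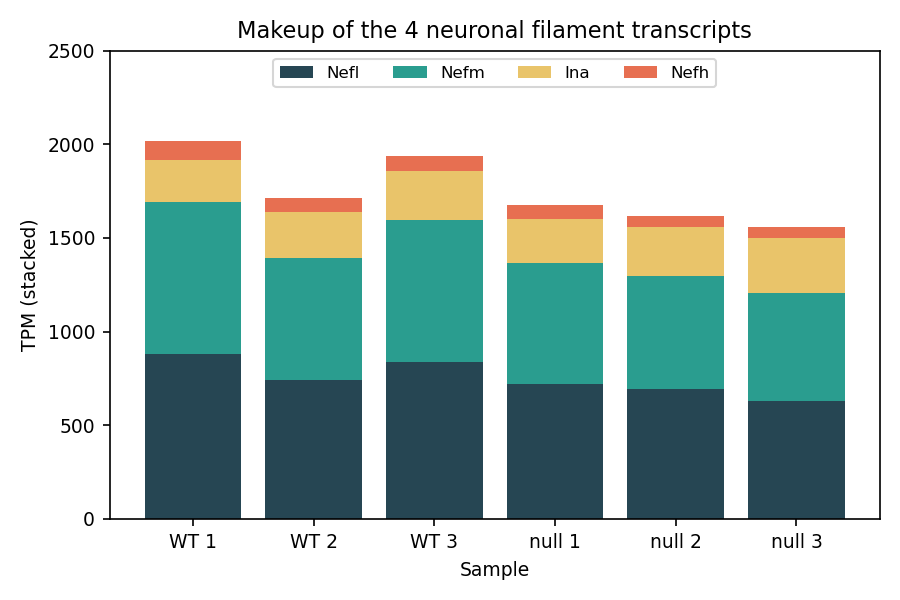
TPM of Nefl, Nefm, Ina and Nefh stacked in each of the 6 samples. The stack is highest in WT replicate 1, at 2016.64 TPM, and lowest in null replicate 3, at 1559.51 TPM, where Ina is widest at 18.6% of the stack.

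Of the axon growth genes Dcx, Gap43 and Stmn2, only Dcx had groups that did not overlap. Its difference was not tested against those of Gap43 and Stmn2. Dcx, which marks newly made and migrating neurons, measured 139.41, 160.51 and 170 TPM across WT replicates, against 170.37, 183.99 and 198.9 TPM across null replicates. Every null sample lay above every WT sample, by 0.37 TPM at the closest. The group means were 157 ± 15.7 TPM (WT) and 184 ± 14.3 TPM (null; SD, n = 3 each), 1.18-fold higher. The log2 difference was 0.24 (SE 0.089), with an unadjusted p of 0.0340 and an adjusted p over all genes of 0.669 by limma. The unadjusted p was 0.0838 without WT replicate 1, 0.0554 without WT replicate 2, 0.0747 without null replicate 2 and 0.109 without null replicate 3. It was 0.0627 with no variance trend in the fit.

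Gap43 measured 1039, 1116 and 1173 TPM across WT replicates, against 1105, 1139 and 1192 TPM across null replicates, with overlapping groups. Its log2 difference was 0.047, with a 95% interval of -0.087 to 0.18. It had the same order of samples as Ina, highest in null replicate 3 and lowest in WT replicate 1. Stmn2, which growing axons need, was the steadiest member, at 1213, 1265 and 1260 TPM in WT and at 1319, 1253 and 1265 TPM in the null. Its log2 difference was 0.037, with a 95% interval of -0.056 to 0.13, and its SD was 2.30% of the mean in WT and 2.77% in the null. The intervals of both genes leave room for small differences in either direction.

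The microtubule proteins Map2 and Mapt and the hydrolase Uchl1 had overlapping groups, and none passed the test. Map2, the classic dendritic protein, measured 521.62, 514.11 and 484.83 TPM across WT replicates, against 552.26, 515.65 and 529.06 TPM across null replicates, a log2 difference of 0.071 (95% interval -0.039 to 0.18). WT replicate 1 lay within the null range, so the groups overlapped. Mapt measured 564.58, 632.84 and 614.62 TPM across WT replicates, against 607.41, 618.91 and 644.91 TPM across null replicates; the log2 difference was 0.048 (95% interval -0.079 to 0.17). Its WT replicate 1 was the lowest of the 6, and without it the difference was -0.00027. Uchl1 measured 1265, 1297 and 1369 TPM across WT replicates, against 1343, 1271 and 1228 TPM across null replicates, a log2 difference of -0.033 (95% interval -0.15 to 0.087). Mapt to Map2 was 1.19 ± 0.0981 (WT) and 1.17 ± 0.0641 (null; SD, n = 3 each).

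**Figure D4:**
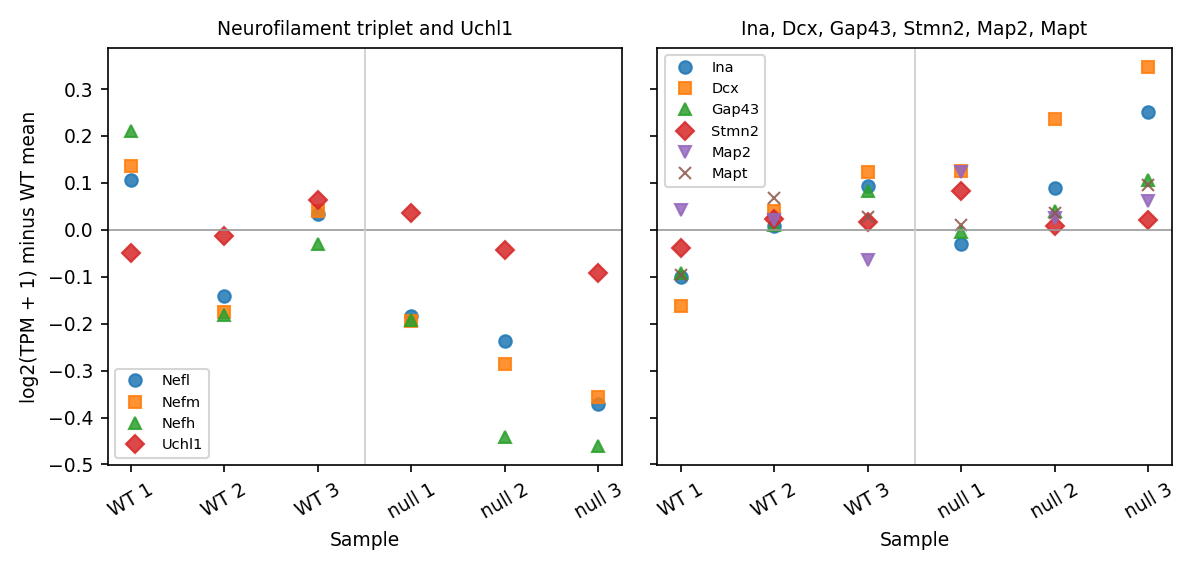
Each member's log2(TPM + 1) minus its WT mean, by sample, with Nefl, Nefm, Nefh and Uchl1 on the left and the other 6 members on the right. Nefl, Nefm and Nefh go down to -0.37, -0.36 and -0.46 in null replicate 3, where Dcx reaches 0.35 and Ina 0.25.

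The summed levels of cell type markers varied between samples. Among the lists below, only the motor neuron sum had groups that did not overlap, and no sum was tested. General neuronal genes, 14 of them, among them Rbfox3, Snap25 and Tubb3, summed to between 4030 and 4105 TPM in WT and between 3943 and 4052 TPM in the null, with a median log2 difference of -0.024. Of the 14, 1 (Syn1, a synaptic vesicle protein) had an unadjusted p under 0.05, lower in the null, against 3.13% of all genes tested. Genes of sensory ganglion neurons (13 of 14 listed were found) summed to 409.4, 325.84 and 605.94 TPM in WT and to 338, 339.63 and 221.98 TPM in the null. Of the 13, 1 (Sncg) had an unadjusted p under 0.05, lower in the null, against 3.13% of all genes tested. Sncg alone was the largest part of each sum, at 281.88, 258.15 and 386.9 TPM in WT and at 232.7, 244.78 and 188.59 TPM in the null. The median log2 difference of the list was -0.88, while Pou4f1 differed by 0.12. Null replicate 3 had the lowest sum, with Scn10a, a sodium channel of pain-sensing neurons, at 0.04 TPM there and at 5.39 TPM or more in the other samples. Null replicate 3 was also the lowest for Nefl, Nefm and Nefh, but the order of the other samples was not theirs. In the sensory ganglion sum WT replicate 3 was highest, and null replicates 1 and 2 lay above WT replicate 2.

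Motor neuron genes summed to 164.32, 146.48 and 172.42 TPM in the WT samples and to 139.6, 137.24 and 123.21 TPM in the null samples, groups that did not overlap. In that list 3 of 10 had an unadjusted p under 0.05, all lower, against 3.13% of all genes tested. They were Slc18a3, the vesicular acetylcholine transporter, at 25.1 ± 3.16 TPM (WT) and 19.0 ± 1.02 TPM (null), Slc5a7, the choline transporter, and Ret, the receptor of GDNF family ligands (SD, n = 3 each). Mnx1 and Lhx3, transcription factors of motor neurons, had overlapping groups, at ratios of null to WT means of 1.10 and 0.946. Chat and Isl1 had overlapping groups as well, at ratios of 0.747 and 0.574. The null lay below every WT sample in 2 of the 10, against 5.38% of all genes: Slc18a3, by 2.38 TPM at the closest, and Ret, by 1.96 TPM. It lay above in 2 others, against 8.91% of all genes: Lhx4, at a ratio of 1.30, and Esrrg, at a ratio of 1.11. The groups of Lhx4, a low gene with a WT mean of 2.27 TPM, were parted by 0.19 TPM, and those of Esrrg by 0.02 TPM. Ret was the largest part of the sum in each sample. Isl2, also listed, was at 1.44 TPM in null replicate 3, where the sensory ganglion sum was lowest, and at 6.84 TPM or more elsewhere. Whether the sum reflects motor neurons alone was not tested. Schwann cell genes, of peripheral nerve, summed to 40.17, 22.17 and 31.31 TPM in WT and to 22.62, 18.01 and 20.44 TPM in the null. Of the 8, 2 (Prx and Ncmap) had an unadjusted p under 0.05, both lower, against 3.13% of all genes tested. As for Nefl, Nefm and Nefh, WT replicate 1 was highest and WT replicate 2 the lowest WT sample. Unlike there, null replicate 1 lay above WT replicate 2, and null replicate 2 was lowest. Skeletal muscle genes summed to 199.52 TPM in null replicate 3, to 84.55 TPM in WT replicate 3 and to at most 22.68 TPM in the other samples, with 0 of 9 tested at an unadjusted p under 0.05. The part of ganglion, nerve root and motor neuron content in the neurofilament values was not tested, and in bulk tissue fewer cells of a type and less RNA per cell cannot be told apart.

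**Figure D5:**
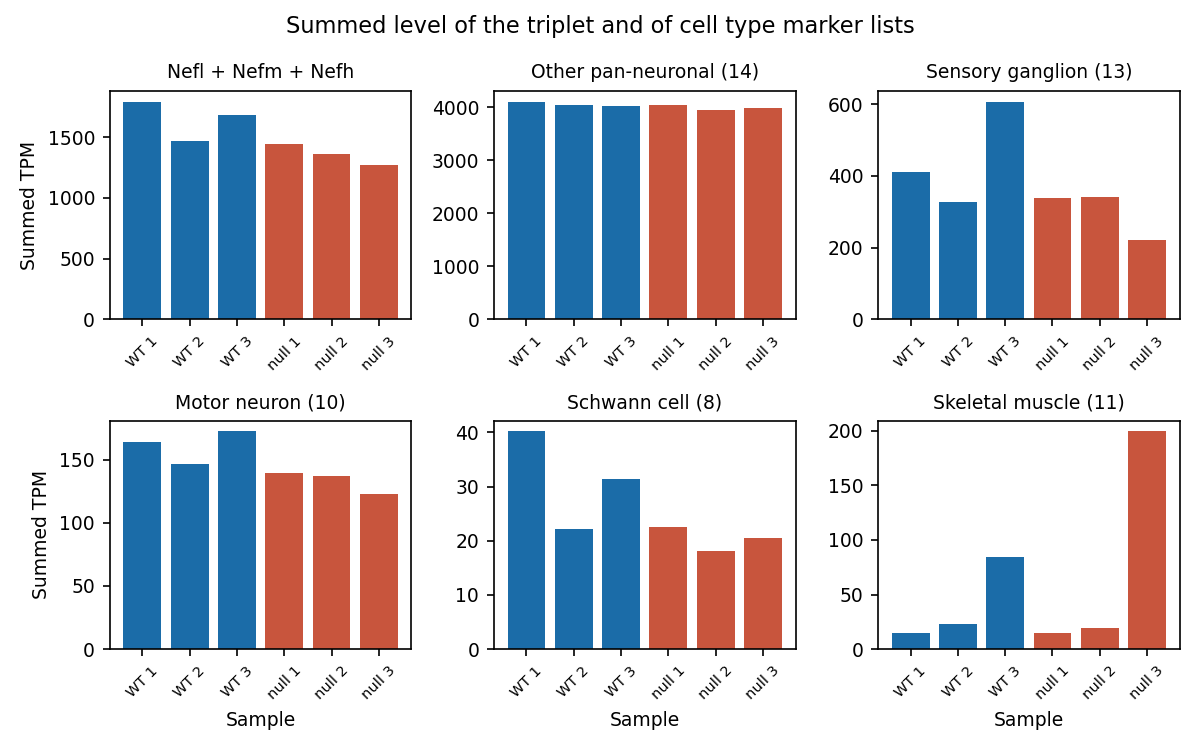
Summed TPM of Nefl, Nefm and Nefh and of 5 marker lists in each sample (number of genes in brackets; WT blue, null red; each axis starts at 0 and has its own scale). General neuronal genes lie between 3943 and 4105 TPM. The motor neuron sum is lower in every null sample than in any WT sample. The Schwann cell sum is lower than in any WT sample in null replicates 2 and 3, and the sensory ganglion sum only in null replicate 3. Sncg is the largest part of each sensory ganglion sum and Ret of each motor neuron sum.

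Of the 6 other intermediate filament genes listed, peripherin had the widest difference. Prph, an intermediate filament of peripheral and motor neurons that can join neurofilaments, measured 209.06, 127.89 and 277.55 TPM across WT replicates, against 142.16, 124 and 67.12 TPM across null replicates. The groups overlapped, its log2 difference was -0.88 (SE 0.36), and its unadjusted p was 0.0464 with an adjusted p of 0.671 by limma. The non-neuronal or progenitor filaments Nes, Vim, Gfap, Synm and Sync overlapped between groups: Gfap, of astrocytes, measured 283.83, 272.44 and 178.21 TPM across WT replicates, against 211.99, 185.15 and 154.67 TPM across null replicates, and Vim, of progenitors and glia, had a log2 difference of -0.056.

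In the other lists of the axonal cytoskeleton no gene passed an adjusted p of 0.05 by limma, and counting the filament genes above 7 of 68 (10.3%) had an unadjusted p under 0.05, against 7.45% of all genes tested. Of the 3 other stathmins 1 did: Stmn1, a stathmin of dividing and young cells, measured 1670, 1904 and 1844 TPM across WT replicates, against 2089, 1960 and 2122 TPM across null replicates, without overlap (unadjusted p = 0.0183). Stmn3 and Stmn4 had log2 differences of 0.011 and 0.015. Of 19 microtubule-associated and collapsin response genes 2 did, Map9 higher (0.21) and Map1a, a protein of mature axons and dendrites, lower (-0.20). In 4 of the 19 the null lay above every WT sample (8.91% of all genes): Map9, Dclk1, a relative of Dcx, its paralog Dclk2, and Camsap2. Dclk1 measured 142.07, 159.35 and 154.87 TPM across WT replicates, against 168.42, 161.66 and 166.09 TPM across null replicates; the log2 difference was 0.12, with an unadjusted p of 0.0583.

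Of 12 growth cone proteins listed 11 were tested, none had an unadjusted p under 0.05, and their log2 differences lay between -0.066 and 0.098; Basp1, a partner of Gap43 at the membrane, differed by 0.027. Sprr1a, a gene of injured axons, was under the filter, at no more than 0.30 TPM. Axonal transport genes had a median log2 difference of -0.029 over 15 tested: Kif1a, a motor of synaptic vesicle precursors, differed by -0.13 (unadjusted p = 0.0469) and Dctn1, a dynactin subunit, by -0.11 (unadjusted p = 0.0448). In 4 of the 15 the null lay below every WT sample (Kif1a, Dctn1, Mapk8ip1 and Mapk8ip3; 5.38% of all genes) and in 1 above (Kif3a; 8.91% of all genes). Kif5a, the neuronal kinesin that carries neurofilaments, differed by -0.11 with overlapping groups.

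Among 11 kinases of tau and neurofilaments and their activators, 1 had an unadjusted p under 0.05 by limma, against 7.45% of all genes tested. Cdk5r1, the p35 activator of Cdk5, measured 126.84, 144.52 and 138.29 TPM across WT replicates, against 155.46, 148.7 and 160.31 TPM across null replicates, a log2 difference of 0.18 (unadjusted p = 0.0206). Cdk5 itself differed by -0.015 and Gsk3b by 0.025. In 2 of the 11 the null lay below every WT sample (Mark4 and Ttbk1, against 5.38% of all genes). In 1 it lay above (Cdk5r1, against 8.91% of all genes). The other ubiquitin hydrolases, Uchl3, Uchl5 and Bap1, differed by 0.12, 0.12 and -0.023, with overlapping groups.

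The genes whose pattern over the 6 samples was most like that of Nefl were sought by the root mean square distance between centred log2(TPM + 1) values, among 10069 other genes with a mean of at least 10 TPM. Nefm was nearest of all (distance 0.028), with the shared bases noted above. Ret came next (0.028), then Cpt1a, the mitochondrial carnitine palmitoyltransferase (0.030), Pcbp3, an RNA-binding protein (0.040), and Epdr1 (0.047), against a spread of Nefl itself of 0.16 on the same scale. Nefh ranked 94 and Dcx 9051. Ret measured 64.16, 54.34 and 60.91 TPM across WT replicates, against 52.38, 49.44 and 43.54 TPM across null replicates. Nearest to Stmn2, whose own spread was 0.035, were Gnaq, Ppia, Paip2, Psma1 and Cab39, at distances from 0.011 to 0.015; the nearest member was Uchl1 at rank 874.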

How the data were processed

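Thoracic cord samples of newborn mice, 3 WT and 3 Myt1-/-, were compared. The authors deposited 1 TPM value per gene and sample; the submitters' processing notes name RSEM, DESeq2 and the build GRCm38.p6, with no role for each. The aligner, annotation release and strand setting: not given in the sources used here. Columns summed to between 993139 and 994687 TPM. Of the columns of values, 1 has no sample in the labels and was not used. From these TPM, limma 3.58.1 (R 4.3.3) was fitted with a variance trend to log2(TPM + 1) of 15962 genes with a mean of at least 1 TPM, leaving out 39525, with genotype as the only term, two-sided, Benjamini-Hochberg adjusted over all of them. This scale understates changes of low genes. Folds are ratios of mean TPM, and intervals are 95% limma intervals. No gene list was adjusted on its own. Some genes of the marker lists are not reported here and were left out of the lists' sums and counts.

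The members and lists were chosen with earlier results of these data known. Named were all members, the members of each list with the smallest p, and the 5 genes most like Nefl and Stmn2; some others were named after their values were seen. Gene models came from GENCODE M21, which held 55227 of the 55487 IDs. On simulated data of this comparison (15962 genes, 200 changed per run, 10 runs) the fit recovered 49.9% of genes changed 1.5-fold and 94.1% of those changed 4-fold, with 98 false calls in all. Changes smaller than 1.5-fold, such as those of the members, were not simulated. The simulated noise was drawn independently for each gene and sample. Alternatives were another pseudocount, 2 filters, no variance trend, replicate number as a block, 3 scalings and leaving out each sample. Figures used matplotlib 3.10.9 (Python 3.11.15).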

Additional observations from a re-analysis of the deposited data

How the results depend on the processing

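No member passed an adjusted p of 0.05 by limma under any of the 14 alternatives; the lowest adjusted p was 0.501, for Dcx without WT replicate 3. Nefl, Nefm and Nefh kept a negative and Dcx a positive difference in all 14: Nefl from -0.33 to -0.21, Nefm from -0.37 to -0.21, Nefh from -0.46 to -0.26 and Dcx from 0.16 to 0.30. The unadjusted p stayed under 0.05 in 14 of 14 fits for Nefl, 13 for Nefm, 12 for Nefh and 9 for Dcx. Genes past the adjusted p over the whole table numbered 0, or 1 with a pseudocount of 0.1, and 0 to 7 with a sample left out (7 without WT replicate 2). The members at an unadjusted p under 0.05 numbered 4, or 3 (without Dcx) with no variance trend, and 1 to 4 with a sample left out (2, Nefl and Nefm, without null replicate 2; 1, Nefl, without null replicate 3). The members with the null below every WT sample numbered 3, or 1 (Nefl) after upper-quartile scaling; after median-ratio scaling Nefh overlapped. Those above numbered 1, and 1 to 2 with a sample left out, Map2 joining Dcx without WT replicate 1 or null replicate 2. With a sample left out, the log2 ratio of Nefm to Nefl ranged from -0.032 to 0.0029, that of Mapt to Map2 from -0.092 to 0.022, and the difference of Mapt from -0.00027 to 0.082, each crossing 0: Nefm to Nefl without null replicate 2, Mapt to Map2 without WT replicates 2 or 3 or null replicate 1, and Mapt without WT replicate 1. The cause was not tested.

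WT and null samples carry the same replicate numbers, and the labels do not say what a number marks. The deviations of same-numbered samples correlated at 0.031, -0.070 and 0.061 across genes, and those of differently numbered samples at -0.122 to 0.0992. The numbers were not taken as pairs. With deviations from means of only 3 samples, these correlations cannot show that pairing is absent. With the replicate block 0 genes passed and the same 4 members had an unadjusted p under 0.05, 0.0132 for Nefl, 0.00966 for Nefm, 0.00190 for Nefh and 0.00338 for Dcx. Without read counts, precision rests on the spread between 3 samples a group and on the variance that limma shares across genes.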
